A study of Mus musculus with 12 samples.

Results

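Transcripts of 10 genes that make, carry the signal of and remove prostaglandins were followed in MEF cells, mouse embryonic fibroblasts, from the phospholipase that releases the fatty acid to the receptors that read the product. The genes were Pla2g4a, Ptgs1, Ptgs2, Ptges, Ptges2, Ptges3, Ptgis, Hpgd, Ptger2 and Ptger4, each taken as the entry of that name in the expression tables, 10 of 46763 names listed in either table. The cells, which had become immortal spontaneously on repeated passage, derive from day 13.5 embryos of the C57BL/6 strain. In the first experiment, 2MUT cells stably expressed human IDH2 with the R172S mutation after retroviral transduction, and Control cells expressed the mock vector; neither was treated, and each group had 3 libraries. In the second, MEF cells were given, for 24 h, either 2-HG at 300 μM in a form that crosses membranes, called 2-HG(+), or DMSO, called 2-HG(-), again with 3 libraries each. The latter are called DMSO-treated in the labels and non-treated in the study's text. IDH2 is a mitochondrial enzyme whose cancer-associated mutants turn α-ketoglutarate into 2-hydroxyglutarate (2-HG), so that the 2 experiments ask which transcripts change with the mutant enzyme and which with its product. The 2MUT cells were a puromycin-selected population from a viral transduction, and no library of cells with wild-type IDH2 was analysed here, so that an effect of the mutation and one of added IDH2 protein cannot be told apart. The experiments also differ in the length of exposure, in the use of transduction and selection as described, and in read depth. In a difference between their changes, mutant against 2-HG cannot be told apart from these.

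Prostaglandins are short-lived lipid signals. Cytosolic phospholipase A2, encoded by Pla2g4a, frees arachidonic acid from membrane phospholipid. The cyclooxygenases encoded by Ptgs1, usually a steadily expressed gene, and Ptgs2, a gene that growth factors and inflammatory signals induce within hours, convert it to prostaglandin H2. Terminal synthases then make prostaglandin E2 (Ptges, Ptges2 and Ptges3) or prostacyclin (Ptgis). Prostaglandin E2 acts through receptors such as EP2 and EP4, encoded by Ptger2 and Ptger4, which raise cyclic AMP, and the dehydrogenase encoded by Hpgd starts its inactivation. Fibroblasts are a known source of prostaglandin E2. The lipids themselves were not measured here.

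Each value is the number of reads assigned to a gene per 1000000 reads on genes (RPM). The 2 experiments list 43280 and 23930 entries, with 20443 names in both, so that reads were not counted on the same list of genes. The part of this in differences between the experiments was not tested. As an amplicon method reads 1 short target per gene, RPM is compared between libraries and not between genes. The Control and 2MUT libraries held 6472439 to 7313602 reads on genes and the 2-HG libraries 14959318 to 18363768, so that 3 reads, taken as the limit that a count of 0 allows, were worth 0.410 to 0.464 RPM and 0.163 to 0.201 RPM. Such limits cover counting error only. Changes were tested with limma on log2(RPM + 1) within each experiment, and adjusted p-values are Benjamini-Hochberg values over all genes tested. Fold changes are on that scale and understate the change of low genes. Nothing in the labels says that libraries of a group came from separate cultures, so that the p-values may measure technical spread alone. In bulk RNA, fewer cells of a type and less RNA per cell cannot be told apart. Mouse Idh2 itself fell from 77.3 ± 5.54 RPM in Control to 49.6 ± 6.39 RPM in 2MUT (SD, n = 3; limma adjusted p = 0.003), and whether its target also reads the human sequence was not tested. With 2-HG it rose, from 176.5 ± 14.3 to 238.5 ± 19.2 RPM (SD, n = 3; limma adjusted p = 0.011), a call lost without 2-HG(-) replicate 3 (adjusted p = 0.054) or 2-HG(+) replicate 2 (adjusted p = 0.052) and under the unmoderated test (adjusted p = 0.051), and the changes differed by -1.07 on the log2 scale (limma adjusted p = 0.00016).

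Ptgs2 lies on chromosome 1 from 150100031 to 150108227 on the forward strand of GRCm38, and Pla2g4a lies from 149829618 to 149961290 on the reverse strand of the same chromosome. Their start sites point away from each other and are 138741 bp apart. Ptgs1 lies on chromosome 2 from 36230426 to 36252272 on the forward strand. The 250 bases before these start sites are shown, 5′ to 3′ in the direction of transcription, because Ptgs2 and Pla2g4a are the members that rose in both experiments and Ptgs1 is the one that changed in opposite directions. A stretch of 25 bases after the Ptgs2 start, from base 6 to base 30, is added because it holds 2 overlapping motifs. Sequences are those of RefSeq on GRCm38.p6, in which 9 of the 10 genes were found, and capitals mark matches to a searched motif on either strand.
Ptgs2, chr1:150099781-150100030, forward strand: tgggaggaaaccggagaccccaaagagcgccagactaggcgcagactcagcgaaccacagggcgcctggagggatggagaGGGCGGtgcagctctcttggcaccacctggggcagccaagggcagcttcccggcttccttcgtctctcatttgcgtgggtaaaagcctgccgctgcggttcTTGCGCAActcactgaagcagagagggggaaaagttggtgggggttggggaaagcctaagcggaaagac
Ptgs2 after the start, chr1:150100036-150100060, forward strand: caccactaCGTCACGTGgagtccgc
Pla2g4a, chr1:149961291-149961540, reverse strand: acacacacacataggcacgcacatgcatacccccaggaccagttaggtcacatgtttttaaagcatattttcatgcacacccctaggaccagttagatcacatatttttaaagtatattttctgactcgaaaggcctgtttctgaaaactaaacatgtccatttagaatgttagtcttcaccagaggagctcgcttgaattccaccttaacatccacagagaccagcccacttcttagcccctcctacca
Ptgs1, chr2:36230176-36230425, forward strand: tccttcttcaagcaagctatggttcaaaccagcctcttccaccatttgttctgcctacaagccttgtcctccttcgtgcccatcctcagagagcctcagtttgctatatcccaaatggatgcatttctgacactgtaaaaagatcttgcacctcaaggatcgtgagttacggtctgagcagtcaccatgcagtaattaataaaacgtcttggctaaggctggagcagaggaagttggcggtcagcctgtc
Searched in windows of 300 bases, 250 before and 50 after the start, were CGTCA (the short form of the cAMP-response element), CACGTG (E-box), TTGCGCAA (C/EBP palindrome), GGGCGG (the GC box), TATAAA (the TATA box), TGANTCA (AP-1 element) and ACGTG (hypoxia-response core, contained in CACGTG). The Ptgs2 window held the C/EBP palindrome from base -69 to -62, a motif present in 0.184% of 32544 distinct windows of the table. It also held a GC box from -170 to -165, present in 35.9% of windows. In its stretch after the start, CGTCA from base 14 to 18 overlaps CACGTG from 17 to 22. All base numbers count from the annotated start, and where transcription starts in these cells was not measured. CGTCA was present in 20.9% of windows, CACGTG in 7.17% and ACGTG in 19.7%. The windows of Ptgs1 and of the Pla2g4a start shown held none of the 7 motifs. A second Pla2g4a start site had the TATA box letters from -200 to -195, a motif of 13.6% of windows, and TGANTCA, in 7.79% of windows, was found at none of the 9. Among the other tested genes, the Ptger4 window held 4 GC boxes, the Ptges window 2, and the Ptges2 window the E-box from -77 to -72. A match is a run of letters and not a binding site, and a window without one says only that these letters are not in it.

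As a check of the cells, 9 of 10 fibroblast markers were tested in each experiment, with Lum under 1 RPM. Their summed level was 15040 to 17010 RPM in Control and 13378 to 13822 RPM in 2MUT, with 1 marker higher and 7 lower. Of these calls, Pdgfrb (lower) held in 0 of 6 fits with a library left out, Col1a1 (lower) failed without Control replicate 3, 2MUT replicate 2 or 2MUT replicate 3, and Fn1 (higher) failed without 2MUT replicate 3 (adjusted p up to 0.18, 0.11 and 0.055). Col3a1, Thy1, Vim, Dcn and Col1a2 fell to 0.20, 0.31, 0.41, 0.55 and 0.57 of the Control level, each in all 6 fits. The summed fibroblast level was 21646 to 23290 RPM in 2-HG(-) and 15256 to 16280 RPM in 2-HG(+), with 1 higher and 5 lower. Pdgfrb, Pdgfra, Col3a1, Dcn and Col1a2 fell to 0.35, 0.38, 0.39, 0.42 and 0.57 of the 2-HG(-) level, each in all 6 fits. Thy1 rose 1.63-fold with 2-HG, also in all 6. Of 8 macrophage markers, 3 were tested in each experiment, with 2 higher and 0 lower in 2MUT and 0 higher and 1 lower with 2-HG. Cd14 and Lyz2 were higher in 2MUT, where Cd68 had a log2 change of -0.39 (limma adjusted p = 0.19), and Cd68 was lower with 2-HG (log2 -0.51, limma adjusted p = 0.021), a call lost in 3 of 6 fits with a library left out, those without 2-HG(-) replicate 1, 2-HG(-) replicate 2 or 2-HG(+) replicate 2 (adjusted p up to 0.072). The summed level of the 8 was 20.5 to 24.1 RPM in Control and 43.6 to 54.5 RPM in 2MUT, with Tyrobp at 0 and Ptprc, Emr1, Csf1r and Itgam under 1 RPM, and 25.7 to 27.1 RPM in 2-HG(-) and 22.1 to 26.9 RPM in 2-HG(+). Epithelial markers summed to at most 1.65 RPM and endothelial markers to at most 3.09 RPM in any library. For comparison, 33.8% of all genes tested were called in 2MUT and 32.8% with 2-HG. The part of these markers in the changes of the prostaglandin genes was not tested.

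In 2MUT cells the phospholipase Pla2g4a, both cyclooxygenases and the inducible terminal synthase Ptges rose, whereas the second prostaglandin E synthase, Ptges2, and the receptor Ptger4 did not pass the test. Of the 10 genes, 6 had a mean of at least 1 RPM and were tested, and 4 of them were higher and 0 lower in 2MUT, where the share called over all 11065 genes tested was 33.8% in either direction, 16.5% higher and 17.3% lower. The 4 higher calls became 2, those of the cyclooxygenases, without 2MUT replicate 2 and also under the unmoderated test, the kind of test that the study used. As a description, the median log2 change of the 6 was 0.52, against 0.01 over all genes tested. With 2-HG, Pla2g4a and Ptgs2 rose, while Ptgs1 and Ptger4 fell, 2 higher and 2 lower of 6 tested, beside 32.8% of 10384 genes called in either direction, 16.1% higher and 16.7% lower. The higher calls became 1 under the unmoderated test and under the replicate block, and the lower calls became 1 without 2-HG(-) replicate 1 or 3 and under the unmoderated test. The median log2 change of the 6 was 0.40 with 2-HG, against -0.02 over all genes tested. The remaining 4 genes were not tested: Ptgis, Ptger2 and Hpgd were at or near 0 in both tables, and Ptges3 was listed at 0 in the first table and not listed in the second.

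**Figure D1:**
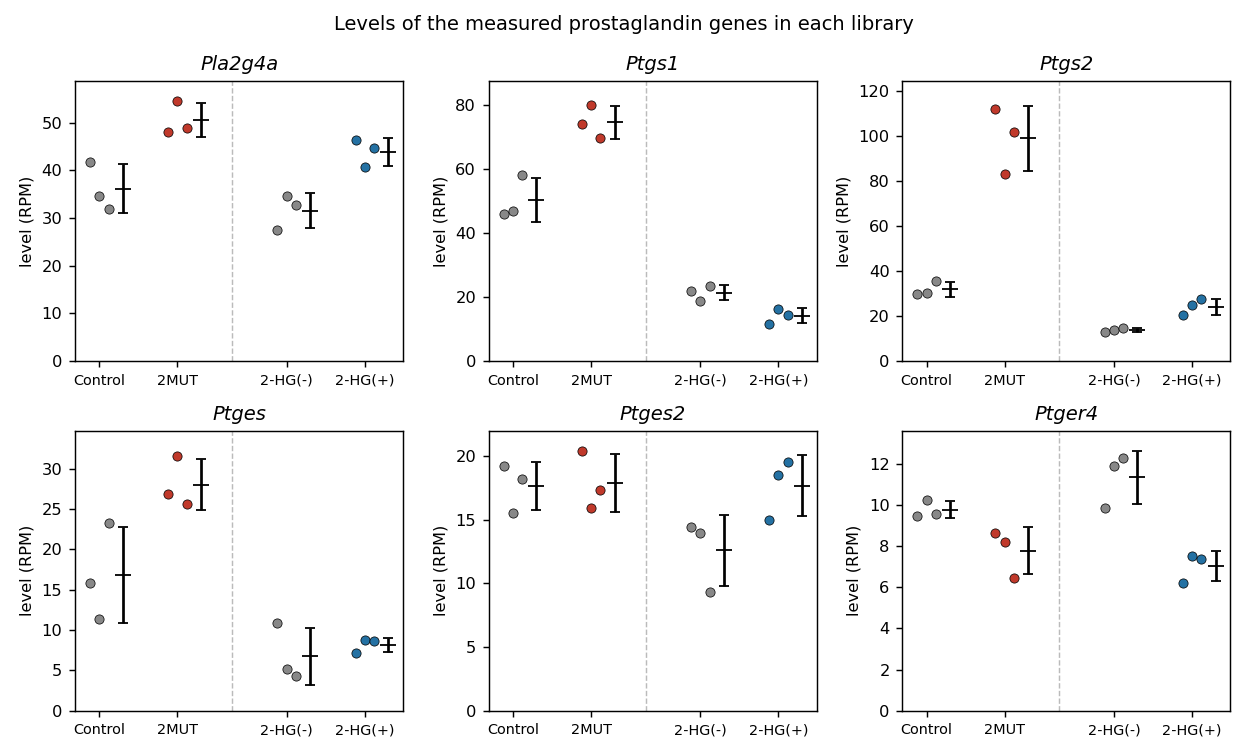
Level in RPM (vertical axis, from 0) of the 6 tested genes in each of the 12 libraries, with the mean and SD of each group beside its points; the dashed line parts the 2 experiments. Ptgs2 lies at 83.0 RPM or more in the 2MUT libraries and at 35.6 RPM or less in Control, and Ptgs1 lies above Control in 2MUT but below 2-HG(-) in 2-HG(+).

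Pla2g4a, which supplies the substrate, was 41.9, 34.6 and 32.0 RPM in the Control libraries and 48.1, 54.6 and 49.0 RPM in the 2MUT libraries. All 3 2MUT libraries were above all 3 Control libraries. The rise was 1.39-fold (log2 0.48, SE 0.14, limma adjusted p = 0.019). With 2-HG, Pla2g4a went from 27.4, 34.6 and 32.7 RPM to 46.5, 40.6 and 44.6 RPM, again with no overlap. This rise was 1.38-fold (log2 0.47, SE 0.12, limma adjusted p = 0.016). The 2 changes differed by 0.01 on the log2 scale, with a 95% interval from -0.38 to 0.40 (adjusted p = 0.97), which leaves room for changes that differ by up to 0.40. Each call was lost in 1 fit with a library left out: without 2MUT replicate 2 the change was 0.42 with adjusted p = 0.079, and without 2-HG(-) replicate 1 it was 0.37 with adjusted p = 0.057. Both calls were also lost under the unmoderated test (adjusted p = 0.072 in 2MUT and 0.059 with 2-HG), and the one with 2-HG under the replicate block (adjusted p = 0.055).

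Ptgs1, the cyclooxygenase of housekeeping prostaglandin synthesis, moved in opposite directions. It was 46.0, 46.9 and 58.1 RPM in Control and 74.2, 79.9 and 69.6 RPM in 2MUT. Every 2MUT library was higher than every Control library, a 1.48-fold rise (log2 0.56, SE 0.13, limma adjusted p = 0.0056) that passed the test in all 6 fits with a library left out. In the 2-HG experiment the values were 21.8, 18.9 and 23.5 RPM without 2-HG and 11.6, 16.3 and 14.5 RPM with it. Here the treated libraries were the low ones, and the groups did not overlap. Ptgs1 fell by 0.57 on the log2 scale (SE 0.15, limma adjusted p = 0.017), to 0.673 of the 2-HG(-) level. That fall did not pass without 2-HG(-) replicate 1 (adjusted p = 0.054) or replicate 3 (adjusted p = 0.077), nor under the unmoderated test (adjusted p = 0.080). The test of the difference between the changes, over all 12 libraries, gave 1.13 on the log2 scale with a 95% interval from 0.70 to 1.57 (limma adjusted p = 0.00059), and it passed in all 12 fits with a library left out. The control levels themselves differed, with means of 50.3 RPM in Control and 21.4 RPM in 2-HG(-), and the part of this in the difference was not tested. Of the 9610 genes tested in both experiments, 39.4% had a difference past the threshold, 19.9% with the higher change in 2MUT, and 9.38% were called in both experiments in opposite directions.

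Ptgs2, the inducible cyclooxygenase COX-2, had the largest rise of the 6 tested genes in either experiment. Its levels were 29.9, 30.1 and 35.6 RPM in Control and 111.7, 83.0 and 101.7 RPM in 2MUT. The lowest 2MUT library was thus still well above the highest Control library, and the rise was 3.03-fold (log2 1.60, SE 0.14, limma adjusted p = 1.2e-05). In 2-HG(-) the levels were 13.1, 13.97 and 14.5 RPM, and in 2-HG(+) they were 20.4, 24.7 and 27.4 RPM. These groups did not overlap either, and the rise was 1.68-fold (log2 0.75, SE 0.14, limma adjusted p = 0.0026). Leaving out any library kept both calls, with log2 changes of 1.505 to 1.717 and of 0.66 to 0.86. The change in 2MUT was larger than that with 2-HG by 0.85 on the log2 scale (95% interval 0.42 to 1.27, limma adjusted p = 0.0043), again in all 12 fits with a library left out. Together with Pla2g4a, Ptgs2 was 1 of 2 members called higher in both experiments, as were 1.5% of all genes tested in both; none was called lower in both, as were 3.07% of genes.

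**Figure D2:**
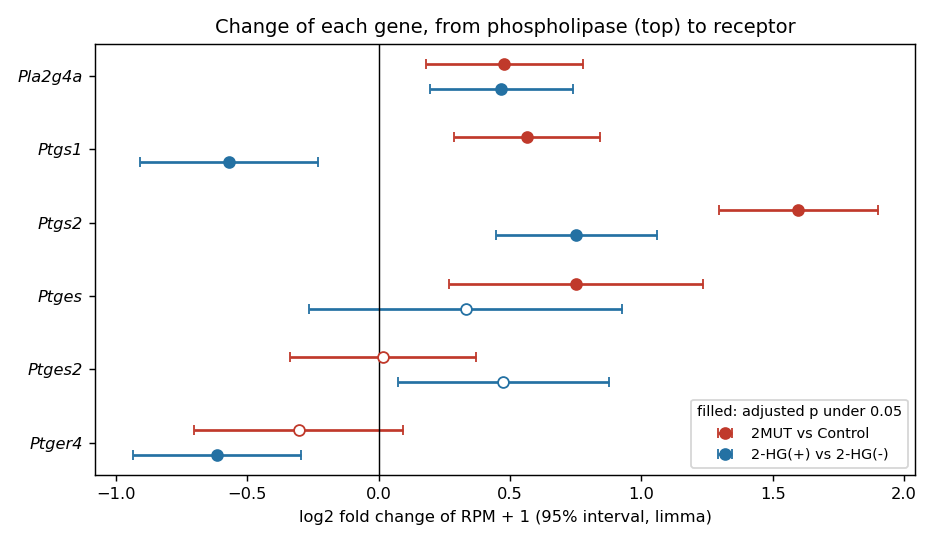
Change of each tested gene as log2 fold change of RPM + 1 (horizontal axis) with its 95% interval from limma, ordered from the phospholipase to the receptor; red is 2MUT against Control, blue is 2-HG(+) against 2-HG(-), and filled points passed the threshold. The intervals of Pla2g4a nearly coincide, whereas those of Ptgs1 lie on opposite sides of 0.

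Of the terminal synthases of prostaglandin E2, Ptges passed the test in 2MUT and Ptges2 passed in neither experiment. Ptges encodes the microsomal, inducible enzyme that often accompanies COX-2. It was 15.8, 11.4 and 23.2 RPM in Control and 26.9, 31.6 and 25.6 RPM in 2MUT, without overlap, a 1.68-fold rise (log2 0.75, SE 0.22, limma adjusted p = 0.022). Control replicate 3 came close to the 2MUT libraries, and the rise missed the threshold in 4 of 6 fits with a library left out: without Control replicate 1 (adjusted p = 0.059), Control replicate 2 (0.070), 2MUT replicate 1 (0.052) or 2MUT replicate 2 (0.083). It also missed under the unmoderated test (adjusted p = 0.15). With 2-HG, Ptges went from 10.8, 5.15 and 4.32 RPM to 7.21, 8.78 and 8.62 RPM. The groups overlapped because of 2-HG(-) replicate 1, which was the highest of the 6 libraries. The log2 change was 0.33 (limma adjusted p = 0.37), and 0.68 with adjusted p = 0.019 without that library. The changes in the 2 experiments differed by 0.42 (adjusted p = 0.42), which did not pass.

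Ptges2 encodes a membrane-associated prostaglandin E synthase that is expressed in many tissues. Its levels were 19.2, 15.5 and 18.2 RPM in Control and 20.4, 16.0 and 17.3 RPM in 2MUT, so that the groups overlapped throughout. The log2 change was 0.02, with a 95% interval from -0.34 to 0.37 (limma adjusted p = 0.95). With 2-HG the libraries lay apart, at 14.4, 13.97 and 9.37 RPM without it and 15.0, 18.5 and 19.5 RPM with it. The log2 change of 0.47 did not pass the threshold (limma adjusted p = 0.070). It passed without 2-HG(+) replicate 1 (adjusted p = 0.040). The difference between the experiments was -0.46 (adjusted p = 0.16). Ptges3 encodes the cytosolic enzyme, also known as the HSP90 co-chaperone p23. It was listed at 0 in all 6 libraries of the first table and was not listed in the second. Other transcripts that nearly every cell uses were also near 0 in the first table and not listed in the second, such as Gapdh at 1.02 to 3.28 RPM and Ywhaz at 0 to 0.57 RPM, so that the 0 of Ptges3 gives no level. Ptgis, the prostacyclin synthase, was 0 RPM in the Control libraries and 0.464, 0 and 0.275 RPM in 2MUT, at most 3 reads. In 2-HG(-) it was 0.218, 0.334 and 0.240 RPM and in 2-HG(+) 0.066, 0.120 and 0.065 RPM, that is 4 or 5 reads against 1 or 2. These levels lie near the limit that a count of 0 allows, and no fold is given.

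Of the receptors, Ptger4, which encodes the EP4 receptor of prostaglandin E2, was the one measured above 1 RPM. Its levels were 9.47, 10.3 and 9.57 RPM in Control and 8.65, 8.20 and 6.47 RPM in 2MUT. All 2MUT libraries were lower, but the log2 change of -0.30 did not pass (95% interval -0.70 to 0.09, limma adjusted p = 0.22). With 2-HG, Ptger4 went from 9.86, 11.9 and 12.2 RPM to 6.21, 7.52 and 7.38 RPM. The treated libraries were again all lower, and Ptger4 fell by 0.62 on the log2 scale (SE 0.14, limma adjusted p = 0.0092), to 0.652 of the 2-HG(-) level, in all 6 fits with a library left out. The 2 changes differed by 0.31 (95% interval -0.14 to 0.76, adjusted p = 0.26), so that a larger fall with 2-HG was not shown. Ptger2, which encodes EP2, had at most 1 read in any library, up to 0.138 RPM. Hpgd, the inactivating dehydrogenase, was listed at 0 in all 12 libraries. In each experiment, 5 of the 6 tested genes had groups that did not overlap, beside 47.5% of all genes tested for 2MUT and 46.3% for 2-HG.

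Next to Ptgs2, the table lists Ptgs2os, a non-coding transcript of the opposite strand that starts 68 bp before Ptgs2 and runs away from it without overlap; it was looked at after its values were seen. It was 4.14, 4.99 and 3.56 RPM in Control and 9.58, 9.52 and 9.495 RPM in 2MUT. The 2MUT libraries were all higher, by 2.03-fold (log2 1.02, SE 0.19, limma adjusted p = 0.0019). With 2-HG it was 2.89, 2.27 and 2.22 RPM without and 2.91, 2.95 and 2.61 RPM with it, and the log2 change of 0.15 did not pass (adjusted p = 0.47). The changes of Ptgs2os differed between the experiments by 0.87 (95% interval 0.40 to 1.34, limma adjusted p = 0.0062). The further non-coding neighbour Ptgs2os2, also looked at afterwards, stayed between 0.888 and 2.63 RPM in the first experiment (log2 change 0.07, adjusted p = 0.89). No strand-specific counting is stated for these libraries.

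**Figure D3:**
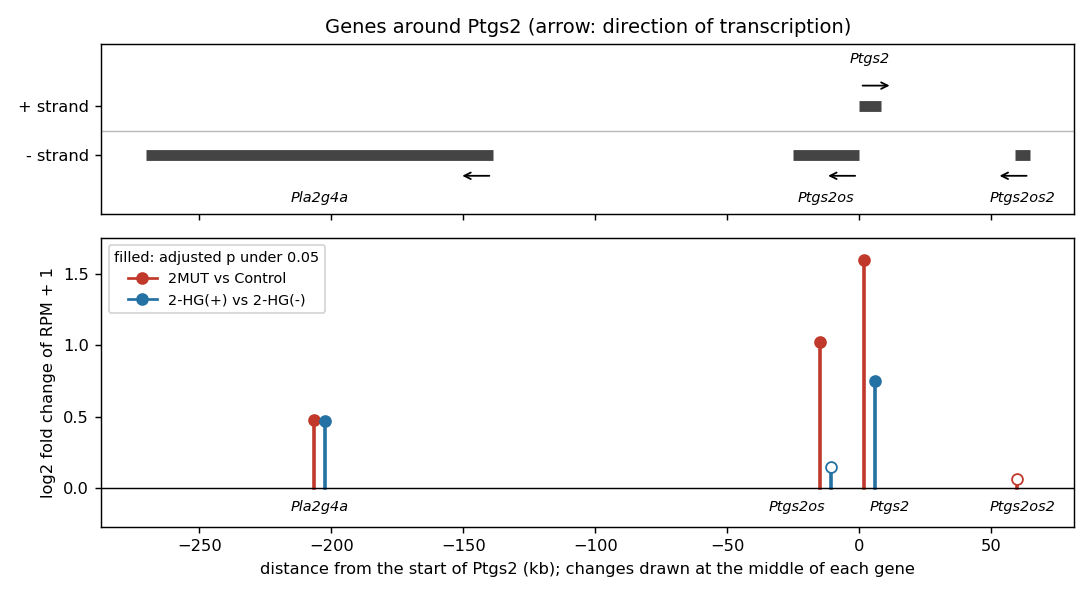
Upper part, position of Pla2g4a, Ptgs2os, Ptgs2 and Ptgs2os2 by strand, with distance in kb from the start of Ptgs2 on the horizontal axis. Lower part, log2 fold change of RPM + 1 of each in 2MUT (red) and with 2-HG (blue), filled where the adjusted p passed; Ptgs2os2 was under 1 RPM in the 2-HG table and has no blue point. Ptgs2os reaches 1.02 in 2MUT and 0.15 with 2-HG.

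Over the 12 libraries, with each table centred on its own mean, the genes whose log2 levels lay nearest to those of Ptgs2 among 9609 others included Hbegf, Serpinb9b, Gm14377 and Slc35g1, at Euclidean distances of 0.558 to 0.694. Hbegf encodes an EGF receptor ligand and Serpinb9b a protease inhibitor of the serpin family. Their Pearson correlations with Ptgs2, from 0.95 to 0.97, are a description, since the points share the group means of the 2 experiments. Measured in the same way, the members were further off: Pla2g4a was at rank 516, Ptges at rank 717, Ptges2 at rank 2602, Ptgs1 at rank 3064 and Ptger4 at rank 8063, the last with a negative correlation of -0.66.

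Other genes that handle arachidonic acid and its products were read from 6 lists of 73 genes in all. In 2MUT 32 of them were tested, with 6 higher and 11 lower (53.1% called, median log2 change -0.13), and with 2-HG 32 were tested, with 4 higher and 7 lower (34.4% called, median 0.06). Over all genes tested, 33.8% and 32.8% were called. The 2MUT counts became 3 higher and 7 lower without 2MUT replicate 1, 3 higher without 2MUT replicate 3, and 3 higher and 5 lower under the unmoderated test, under which 3 were higher and 3 lower with 2-HG. The lists were chosen with results of these data known, and their counts are a description. Among the listed genes, the calls that the unmoderated test ended included those of Akr1b8, Nr4a2, Pla2g2e, Ptgfr and Sik1 in 2MUT and of Alox5ap, Mgst2, Pde4b, Pla2g16 and Ptgfr with 2-HG, with adjusted p-values of 0.053 to 0.15.

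Among the other phospholipases and arachidonate-handling genes, 3 rose and 5 fell of 13 tested in 2MUT, beside 33.8% of all genes tested called. The 3 rises, of Pla2g2e, Pla2g6 and Lpcat3, became 0 under the unmoderated test. With a library left out, Pla2g6 passed in 1 of 6 fits (without Control replicate 3), Lpcat3 in 2 (without Control replicate 2 or 3), and the fall of Daglb in 3, failing without Control replicate 1, Control replicate 2 or 2MUT replicate 1. Anxa1, encoding annexin A1, a protein known to restrain phospholipase A2, fell from 1111, 1160 and 942 RPM to 531, 491 and 521 RPM (log2 -1.05, limma adjusted p = 1.8e-05). Mboat7, whose product puts arachidonate back into phosphatidylinositol, fell from 38.2, 35.8 and 31.9 RPM to 15.8, 19.3 and 16.2 RPM (to 0.499 of the Control level, limma adjusted p = 0.00041). With 2-HG neither passed, at log2 changes of 0.16 (adjusted p = 0.52) and 0.09 (adjusted p = 0.59), and the difference between the experiments passed for Anxa1 (-1.21, limma adjusted p = 0.00062) and for Mboat7 (-1.095, limma adjusted p = 0.00028). Pla2g2e, a secreted phospholipase, rose from 1.04, 2.71 and 2.46 RPM to 5.10, 3.51 and 4.68 RPM in 2MUT (log2 0.86, limma adjusted p = 0.031). This low gene lost its call without Control replicate 1, 2MUT replicate 1 or 2MUT replicate 3, with adjusted p-values of 0.10, 0.10 and 0.091. Its call was also lost when genes under 1 RPM were tested too (limma adjusted p = 0.074). Pla2g7, the plasma form of platelet-activating factor acetylhydrolase, fell in both experiments. It went from 12.7, 11.4 and 13.1 RPM to 6.64, 6.59 and 8.26 RPM in 2MUT (log2 -0.72, limma adjusted p = 0.0089). With 2-HG the fall was from 122, 140 and 133 RPM to 42.6, 43.3 and 46.7 RPM (log2 -1.55, limma adjusted p = 5.9e-06), larger by 0.83 (limma adjusted p = 0.0015).

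With 2-HG, 2 of these genes rose and 3 fell of 12 tested, beside 32.8% of all genes tested called. Beside Pla2g7, the lysosomal phospholipase Pla2g15 fell by 0.73 on the log2 scale (limma adjusted p = 0.00063) and the phospholipase and acyltransferase Pla2g16 fell by 0.59 (limma adjusted p = 0.011). Pla2g16 also fell in 2MUT, by 0.70 (limma adjusted p = 0.017), a call lost without 2MUT replicate 1 or 3 (adjusted p up to 0.073) and under the unmoderated test, and its changes differed by -0.11 (adjusted p = 0.76). The secreted phospholipase Pla2g12a rose from 66.2, 93.0 and 82.4 RPM to 214, 166 and 137 RPM (log2 1.08, limma adjusted p = 0.0013), and in 2MUT its log2 change was 0.04 (adjusted p = 0.79). That difference between the experiments was -1.04 (limma adjusted p = 0.0017).

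The other prostanoid synthases had 3 of 8 genes at 1 RPM or more. Akr1b8, an aldo-keto reductase, fell in 2MUT from 374.5, 259.5 and 314.5 RPM to 201, 199 and 236 RPM (log2 -0.56, limma adjusted p = 0.0071). With 2-HG its log2 change was 0.26 (adjusted p = 0.15), and the difference between the experiments was -0.83 (limma adjusted p = 0.0060). The carbonyl reductase Cbr1 had log2 changes of -0.28 (adjusted p = 0.18) and -0.33 (adjusted p = 0.063), and Akr1c18 of 0.02 (adjusted p = 0.96) and 0.45 (adjusted p = 0.18), none of which passed. Of 7 further prostanoid receptors, Ptgfr, which encodes the prostaglandin F receptor, was the one tested. It was 2.37, 1.85 and 2.46 RPM in Control and 0.464, 1.17 and 0.275 RPM in 2MUT (log2 -1.01, limma adjusted p = 0.015). It was 3.27, 1.80 and 2.76 RPM in 2-HG(-) and 0.859, 0.902 and 1.31 RPM in 2-HG(+) (log2 -0.82, limma adjusted p = 0.0091). Ptgfr thus fell in both experiments, at levels of a few reads in 2MUT, and the 2MUT call was lost without 2MUT replicate 1 (adjusted p = 0.0504) or replicate 3 (adjusted p = 0.061).

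Of the transport genes, Slco2a1 rose in 2MUT and Abcc4 rose in both experiments. Slco2a1 encodes the prostaglandin transporter that takes prostaglandins into the cell. It was 64.8, 60.1 and 71.1 RPM in Control and 198, 208 and 218 RPM in 2MUT, a 3.16-fold rise (log2 1.66, limma adjusted p = 1.4e-06). With 2-HG it was 146, 153 and 122.7 RPM without and 158, 172.3 and 166 RPM with it, a log2 change of 0.24 that did not pass (adjusted p = 0.12). The difference between the experiments was 1.42 (95% interval 1.105 to 1.73, limma adjusted p = 5.8e-06). Abcc4 encodes MRP4, an exporter of prostaglandin E2 and of cyclic nucleotides. It rose in 2MUT from 11.4, 12.4 and 10.9 RPM to 31.8, 21.2 and 32.7 RPM (log2 1.21, limma adjusted p = 0.00053). With 2-HG it rose from 41.5, 36.4 and 35.8 RPM to 81.8, 74.3 and 84.9 RPM (log2 1.06, limma adjusted p = 9.4e-05). These changes differed by 0.15 (95% interval -0.31 to 0.60, adjusted p = 0.62). The reductases Ptgr1 and Ptgr2, which act on prostaglandin metabolites, passed in neither experiment, with log2 changes of 0.15 and 0.41 in 2MUT and of -0.26 and -0.28 with 2-HG. The difference between the experiments passed for Ptgr2 (0.70, limma adjusted p = 0.025, in 7 of 12 fits with a library left out) and not for Ptgr1 (0.42, adjusted p = 0.21).

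In the lipoxygenase and leukotriene branch, which uses the same arachidonic acid, 0 rose and 2 fell of 4 tested genes in 2MUT, and 0 rose and 3 fell of 4 with 2-HG. The shares called over all genes tested were 33.8% and 32.8%, and the counts are a description. Alox5ap, encoding the protein that presents arachidonic acid to 5-lipoxygenase, fell in both. It went from 5.62, 8.83 and 6.15 RPM to 2.78, 3.37 and 2.48 RPM in 2MUT (log2 -1.01, limma adjusted p = 0.0055). With 2-HG it went from 4.74, 4.75 and 3.78 RPM to 1.39, 2.65 and 2.55 RPM (log2 -0.78, limma adjusted p = 0.012). Lta4h, the leukotriene A4 hydrolase, fell in 2MUT (log2 -0.59, limma adjusted p = 0.0018) and had a log2 change of 0.00 with 2-HG. Its difference between the experiments was -0.59 (limma adjusted p = 0.0090). The microsomal glutathione transferases Mgst3 and Mgst2 fell with 2-HG, by 0.90 (limma adjusted p = 0.00022) and 0.74 (limma adjusted p = 0.020) on the log2 scale. In 2MUT, all 3 libraries lay above Control for Mgst3, with a log2 change of 0.33 that did not pass (limma adjusted p = 0.059), and the difference between the experiments was 1.24 (limma adjusted p = 2.9e-05). The call of Mgst2 was lost without 2-HG(-) replicate 1 (adjusted p = 0.071) or replicate 3 (adjusted p = 0.061).

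Genes that cyclic AMP is known to induce, the second messenger of EP2 and EP4, were mixed. In 2MUT 1 rose and 2 fell of 7 tested, and with 2-HG 1 rose and 0 fell of 8, beside 33.8% and 32.8% of all genes tested called. Dusp1, a phosphatase that turns off MAP kinases, rose from 22.9, 27.6 and 28.0 RPM to 201, 205 and 187 RPM in 2MUT (log2 2.87, limma adjusted p = 8.1e-08). Its log2 change with 2-HG was -0.05 (adjusted p = 0.83), and the difference was 2.92 (limma adjusted p = 2e-07). The kinase gene Sik1 and the nuclear receptor gene Nr4a2 fell in 2MUT by 0.73 (limma adjusted p = 0.012) and 0.72 (limma adjusted p = 0.014) on the log2 scale. Neither kept its call without Control replicate 1 (adjusted p = 0.052 and 0.053), and Sik1 also lost it without 2MUT replicate 1 (adjusted p = 0.054). With 2-HG the log2 changes of Sik1 and Nr4a2 were 0.45 (adjusted p = 0.11) and -0.18 (adjusted p = 0.44). The difference between the experiments passed for Sik1 (-1.19, limma adjusted p = 0.0076) and not for Nr4a2 (-0.54, adjusted p = 0.11). With 2-HG the gene that passed was Pde4b, a phosphodiesterase that breaks down cyclic AMP, at a log2 change of 0.60 (limma adjusted p = 0.011). In 2MUT its log2 change was -0.07 (adjusted p = 0.76), and the difference was -0.66 (limma adjusted p = 0.020).

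**Figure D4:**
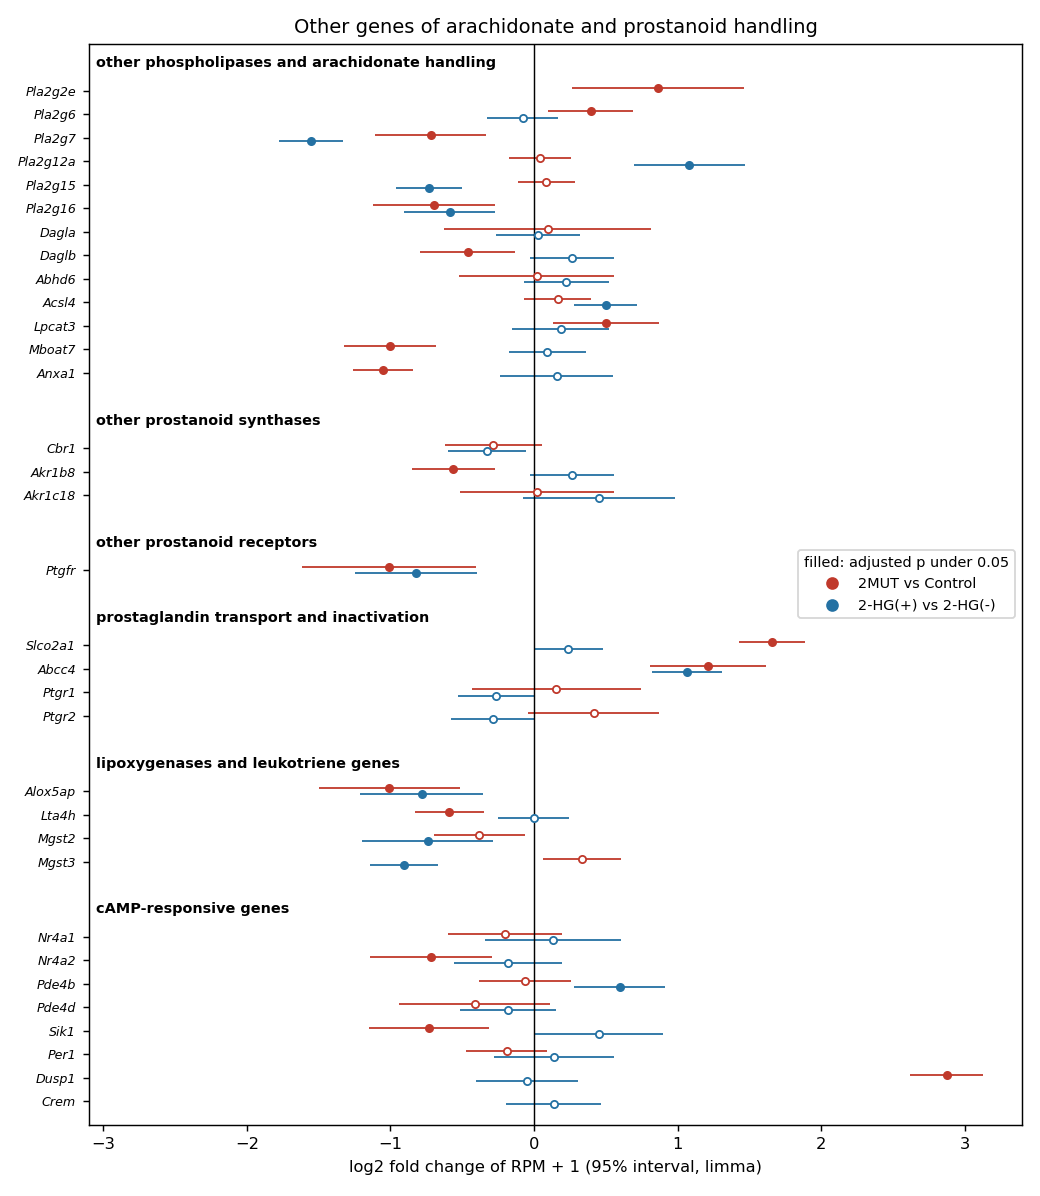
Log2 fold change of RPM + 1 (horizontal axis) with its 95% interval from limma for the tested genes of the 6 lists, in 2MUT (red) and with 2-HG (blue); filled points passed the threshold. Slco2a1 and Dusp1 lie at 1.66 and 2.87 in 2MUT and at 0.24 and -0.05 with 2-HG, while Abcc4 lies near 1 in both experiments.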

How the data were processed

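RNA of 12 libraries of MEF cells was measured, 3 in each of Control, 2MUT, 2-HG(-) and 2-HG(+), with conditions taken from the sample labels. Reads from Ion AmpliSeq libraries were aligned by the authors with TMAP to the AmpliSeq mouse reference and assigned to genes by the AmpliSeqRNA plug-in; the deposited unit is RPM, with 1 table per experiment in which each library adds up to 1000000. The tables list 43280 and 23930 entries, and changes were computed only within a table. The members and gene lists were chosen with earlier results of these data known.

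The tests were limma 3.58.1 fits (R 4.3.3) to log2(RPM + 1) that allowed for a mean-variance trend. They covered genes whose mean over the 6 libraries reached 1 RPM, with Benjamini-Hochberg adjustment over all of these and a threshold of 0.05. The study used a Student test with the same adjustment on data processed in GeneSpring. The unmoderated alternative here is the same kind of test on log2(RPM + 1) with the filter at 1 RPM, so that its counts are not those of the study. The difference between the experiments was the contrast of both changes over 12 libraries. Whole reads could be recovered from RPM for 99.98 to 100% of values (within 0.00051 RPM), and these reads were tested with edgeR 4.0.16 and DESeq2 1.42.0. edgeR called 1817 genes higher and 1947 lower in 2MUT and 1794 and 1752 with 2-HG. DESeq2 called 1838, 1910, 1901 and 1765. Other alternatives were a pseudocount of 0.1, a floor at 1 RPM, a filter at 10 RPM or none, quantile, 75th percentile and median-of-ratios scaling, a fit without trend, a replicate block, and fits without each library in turn. Replicate pairs differed by 5.72 to 34.5 times the counting noise (chi-square per degree of freedom), so that no library was counted as a duplicate.

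Named are all members, up to 4 genes past the threshold with the largest change per list and comparison, all tested synthases, receptors and transport genes, and the 5 genes nearest to Ptgs2, 1 of which is not reported here. Gene positions come from GENCODE M21 on GRCm38 and sequences from RefSeq on GRCm38.p6. Tests were checked on simulated data. Tables were handled with pandas 2.3.3 and plots drawn with matplotlib 3.10.9.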

Additional observations from a re-analysis of the deposited data

Results flagged for a closer look

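The change of Ptgs1 differed between the experiments, by 1.13 on the log2 scale over the 12 libraries (limma adjusted p = 0.00059), with all 3 2MUT libraries above Control and all 3 2-HG(+) libraries below 2-HG(-). The change of Ptgs2 also differed, by 0.85 (limma adjusted p = 0.0043), with the treated libraries above their controls in both experiments and the larger rise in 2MUT. Mean control levels were 50.3 and 21.4 RPM for Ptgs1 and 31.8 and 13.9 RPM for Ptgs2, in Control and 2-HG(-). As the experiments also differ in duration, transduction and read depth, mutant against 2-HG cannot be told apart from these.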

How the results depend on the processing

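With 3 libraries a group, changes near the threshold rest on single libraries. The unmoderated test called 1021 genes higher and 1223 lower in 2MUT, against 1826 and 1915, and 1098 and 1139 with 2-HG, against 1668 and 1737. Under it, 2 members were higher in 2MUT, and 1 was higher and 1 lower with 2-HG; of the lists, 3 genes were higher and 5 lower in 2MUT and 3 lower with 2-HG. With a filter at 10 RPM, 1 member was lower with 2-HG, since Ptger4 and Ptges were not tested. With each library left out, 2 to 4 members were higher in 2MUT (2 without 2MUT replicate 2), and 1 to 2 were lower with 2-HG (1 without 2-HG(-) replicate 1 or 3). The listed genes higher in 2MUT then numbered 3 to 6 (3 without 2MUT replicate 1 or 3) and those lower 7 to 11 (7 without 2MUT replicate 1).

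Same-numbered libraries did not deviate together (correlations of 0.029 to 0.071 for 2MUT and -0.457 to 0.057 for 2-HG), so that the numbers were not taken as pairs. With the replicate number as a block, 1 member was higher with 2-HG, as Pla2g4a had an adjusted p of 0.055, and 4 members were higher in 2MUT. Ptgs1 and Ptgs2 kept their difference between the experiments under all 12 alternatives and with each library left out.

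Signs turned only for small changes. Akr1c18 in 2MUT became -0.0234 with quantile normalization and -0.00567 with edgeR, and -0.12 to 0.20 with libraries left out. The Pla2g4a difference became -0.00368 with median-of-ratios scaling and -0.0703 to 0.119 with libraries left out. The Ptgfr difference became 0.15 with values under 1 RPM set to 1. Ptges2 in 2MUT ranged from -0.0755 to 0.0921 with libraries left out. Ptges2 passed with 2-HG under quantile normalization (adjusted p = 0.039), median-of-ratios scaling (0.049) and DESeq2 (0.030). Without a filter, Ptgis was lower with 2-HG at 1 to 5 reads. The cause of these shifts was not tested.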
